A study of Homo sapiens with 6 samples.

Results

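Ribosome biogenesis is the making of ribosomes in the nucleolus, and 45 transcripts of its machinery were followed here by gene symbol among the 60612 genes of the deposited tables. The list holds proteins of the box C/D and H/ACA small nucleolar RNPs, nucleolar chaperones with a helicase, RNA polymerase I with its initiation factors, and assembly factors of both ribosomal subunits. RNA sequencing covered 2 groups of 3 libraries, labelled ABCF1 and NC-1. All 6 libraries carry the cell line label HepG2, a line from a human liver tumour, and the tissue label liver. The series' design text speaks of stable HepG2 lines made to overexpress ABCF1 with lysine-to-arginine changes. The sample labels say only ABCF1 or NC-1, do not say what NC-1 stands for, which ABCF1 form was used, or whether a line was 1 clone or a pool, and give no culture time. Whether libraries of 1 group are separate cultures is not stated, and the p-values below reflect only how far such libraries differ, which may be technical.

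In the nucleolus, RNA polymerase I copies the ribosomal DNA into a long precursor RNA. Box C/D particles guide 2'-O-methylation and box H/ACA particles guide pseudouridylation of that precursor, while the small subunit processome and the large subunit assembly factors fold it, cut it and load ribosomal proteins. In growing tumour cells this programme is known to be driven by MYC, and its output sets the capacity for translation, the process in which the ribosome-associated protein ABCF1 takes part.

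The libraries held 62323034 to 77394510 counts, and the edgeR quasi-likelihood test covered 16545 genes, including all 45 members. A gene was called at a Benjamini-Hochberg adjusted p under 0.05. Counts are given as CPM, scaled to the TMM-adjusted library size and compare 1 gene between libraries, while the authors' RPKM also divides by transcript length and compares genes. ABCF1 itself was at 102, 108 and 109.7 CPM in the libraries labelled ABCF1, against 162, 159 and 155 CPM in NC-1, lower in the group that carries its name, with a log2 fold change of -0.57 (SE 0.08, edgeR adjusted p = 0.25). That is opposite to the overexpression of which the design text speaks, and the label itself gives no direction, so the group is called by its label throughout. Of 16 hepatocyte markers, 14 averaged under 1 RPKM, among them ALB and AFP, and APOH was at 0 in all 6 libraries. RBP4 (10.6 RPKM) and HNF4A (21.3 RPKM) were the exceptions. The summed hepatocyte list ran from 30.3 to 41.8 RPKM in the libraries labelled ABCF1 and from 24.6 to 37.5 RPKM in NC-1. The liver label is therefore not borne out by most of its markers. Summed markers of fibroblasts reached 17.8 RPKM in the libraries labelled ABCF1 and 17.9 RPKM in NC-1, most of it COL1A1, those of blood cells 4.07 and 3.38 RPKM, and those of endothelial cells 0.609 and 0.602 RPKM. The part of cell composition in the results was not tested. ABCF1 replicate 3 and NC-1 replicate 2 stood apart from the other 4 libraries on the first principal component, where they scored 47.2 and 42.0 and the others -29.3 to -6.96, so results are also given without them.

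Promoters of the members are shown first because the members were listed by function, so their sequence is a property the choice did not use. RefSeq windows of 250 bases before the gene start (GRCh38.p14) matched 39 of the 45 members. Searched on both strands were the E-box CACGTG, to which MYC binds with its partner MAX, and CCGGAAG, a core sequence bound by ETS family factors. The ETS core stood in 16 of 39 members (41.0%), in 37 of 116 further ribosome biogenesis genes (31.9%) and in 2037 of 11097 genes tested in the counts (18.4%). The E-box stood in 5 of 39 members (12.8%), 18 of 116 further genes (15.5%) and 1240 of 11097 tested genes (11.2%). Over all 27305 genes with a window the shares were 10.2% for the ETS core and 7.73% for the E-box. The median GC content of the windows was 62.8% for members and 64.4% for tested genes. These matches describe letters in a window and not occupied sites. Printed here are 4 windows with both motifs in capitals, 5′ to 3′ along the gene. NOC3L and NOC2L encode partner proteins, had log2 fold changes of opposite sign and each hold 1 ETS core, NOP10 holds 2 E-boxes and 1 ETS core, and POLR1C holds 3 ETS cores, of which 2 overlap on opposite strands.
NOC3L (chr10:94362940-94363189, minus strand): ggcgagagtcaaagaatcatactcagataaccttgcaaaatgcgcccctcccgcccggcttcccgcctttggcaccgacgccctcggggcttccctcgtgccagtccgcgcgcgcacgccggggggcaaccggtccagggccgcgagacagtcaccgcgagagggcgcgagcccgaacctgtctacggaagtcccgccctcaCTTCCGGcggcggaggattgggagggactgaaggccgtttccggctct
NOC2L (chr1:959257-959506, minus strand): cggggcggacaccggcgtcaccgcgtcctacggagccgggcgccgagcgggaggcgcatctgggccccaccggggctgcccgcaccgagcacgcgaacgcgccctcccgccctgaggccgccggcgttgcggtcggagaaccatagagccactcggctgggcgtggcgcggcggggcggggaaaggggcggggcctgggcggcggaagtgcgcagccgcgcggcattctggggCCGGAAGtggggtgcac
NOP10 (chr15:34343137-34343386, minus strand): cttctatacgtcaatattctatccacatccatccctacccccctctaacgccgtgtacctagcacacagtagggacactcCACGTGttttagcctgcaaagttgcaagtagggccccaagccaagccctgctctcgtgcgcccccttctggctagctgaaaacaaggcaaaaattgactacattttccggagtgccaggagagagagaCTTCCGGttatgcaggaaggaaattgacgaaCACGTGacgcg
POLR1C (chr6:43516839-43517088, plus strand): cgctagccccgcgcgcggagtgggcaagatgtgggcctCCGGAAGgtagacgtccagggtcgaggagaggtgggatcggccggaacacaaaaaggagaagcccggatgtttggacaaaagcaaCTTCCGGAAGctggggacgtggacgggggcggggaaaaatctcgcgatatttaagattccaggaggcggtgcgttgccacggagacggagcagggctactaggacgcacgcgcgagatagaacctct
The members with an ETS core included 8 of 16 with a positive log2 fold change (median 0.0054), and those without it 8 of 23 (median -0.14). The 5 members with an E-box (NOP10, UTP4, DDX21, MDN1 and UTP20) had log2 fold changes of 0.23, 0.17, -0.29, -0.34 and -0.36. Neither motif thus marked a single direction.

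Between the libraries labelled ABCF1 and NC-1, edgeR called none of the 45 members, 0 higher and 0 lower, and also none of the other genes (0% called). At an unadjusted p under 0.05 there were 5 members higher and 9 lower, 11.1% and 20% of the list, against 6.27% and 8.54% of all tested genes. All members averaged over 10 CPM, and among the 9485 genes of that level the shares were 9.28% and 11.8%. These counts moved with the scaling and the libraries. They were 0 higher and 13 lower with library size alone, 0% and 28.9% of the list, against 1.72% and 14.6% of all tested genes. Limma on RPKM gave 0 and 12 under either pseudocount, 0% and 26.7%, against 1.95% to 2.06% and 11.7% to 12% of all tested genes. The replicate number as a block gave 1 and 6, 2.22% and 13.3%, against 2.28% and 4.93%. With 1 library left out they ran from 0 to 8 higher and from 6 to 9 lower. These were 0% to 17.8% and 13.3% to 20% of the list, against 3.35% to 8.78% and 4.82% to 9.55% of all tested genes. The DESeq2 Wald test called 6 members lower (NOP58, NCL, RRN3, WDR43, NOC3L and CEBPZ) and none higher, 13.3% and 0% of the list. Of all tested genes 2.31% were called lower, 1.47% higher and 3.78% either way. Of the genes of 10 CPM or more it called 3.71% lower and 2.52% higher. The log2 fold changes ran from -0.51 for CEBPZ to 0.34 for FBL, with a median of -0.086 and 18 of 45 positive, against a median of 0.00050 and 8281 of 16545 positive over all tested genes. In 8 members the libraries labelled ABCF1 all lay above NC-1 and in 9 all lay below, 17.8% and 20% of the list, against 10.7% and 12.4% of all tested genes and 14.7% and 15.5% of those of 10 CPM or more. With library size alone as the scaling, which put the median of all genes at -0.10, 13 of 45 members were positive, and GAR1, NOP56, NOP14, BYSL and NOP16 turned negative. Leaving out 1 library turned the sign or moved the log2 fold change by over 1.5 times in 27 of the 45 members, 21 of them without ABCF1 replicate 3 and 19 without NC-1 replicate 2. In bulk RNA a lower value can come from fewer cells of a type or from less RNA per cell, and these cannot be told apart.

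**Figure D1:**
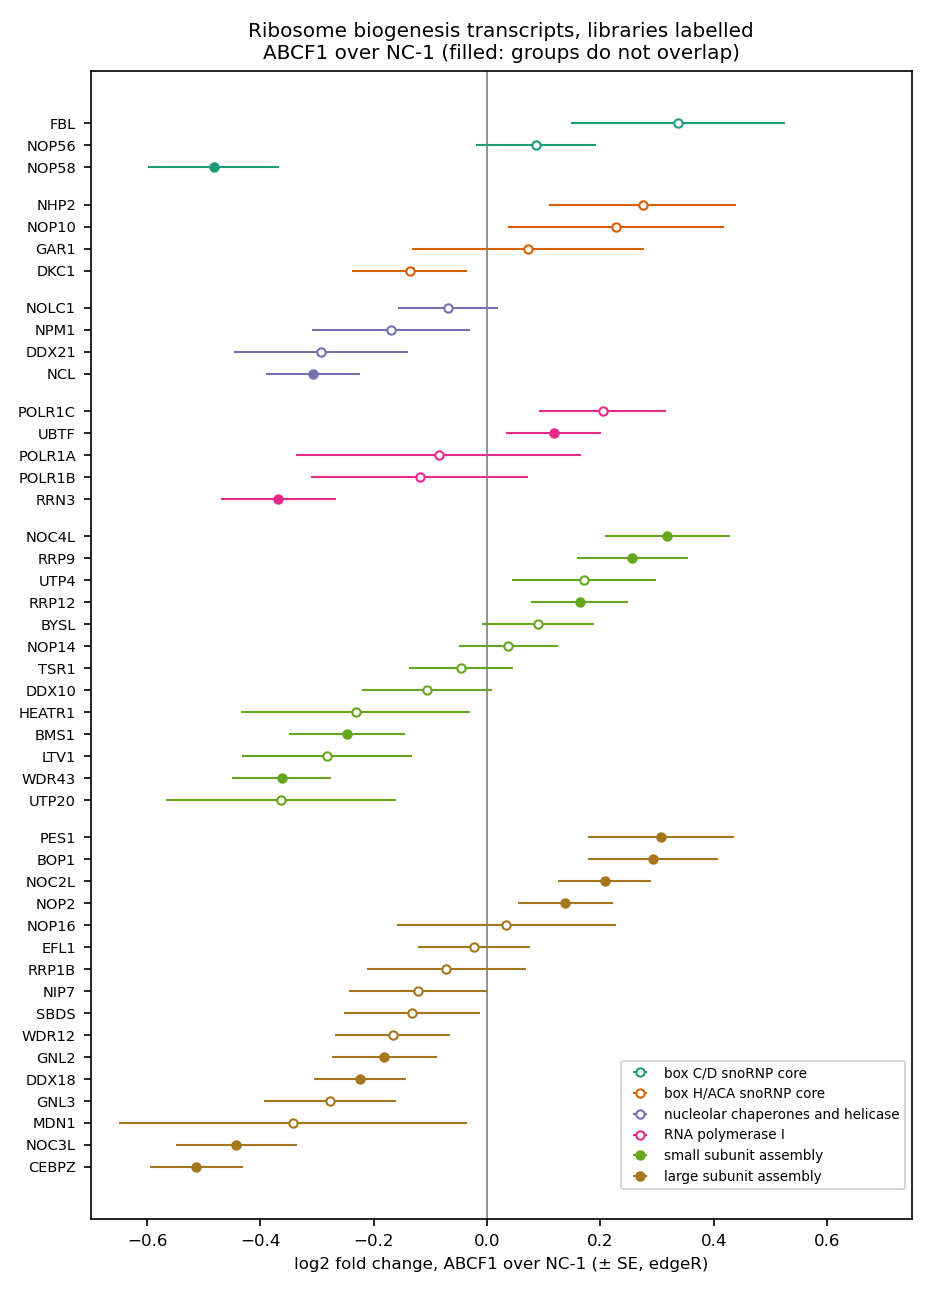
Log2 fold change of each of the 45 members (x axis, ABCF1 over NC-1, bars ± SE from edgeR, 3 libraries a group), grouped by role in colour, with filled points where the groups of CPM values do not overlap. CEBPZ and NOP58 lie lowest at -0.51 and -0.48 and FBL highest at 0.34, and 5 of the 6 role groups have filled points.

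The box C/D core consists of the methyltransferase fibrillarin (FBL) and the scaffold proteins NOP56 and NOP58. FBL, at 272 RPKM the second most abundant member, was at 288, 299 and 418 CPM in the libraries labelled ABCF1, against 241, 328 and 226 CPM in NC-1. ABCF1 replicate 3 was the highest and NC-1 replicate 2 came second, so the groups overlapped, and the log2 fold change was 0.34 (SE 0.19), or 0.15 without ABCF1 replicate 3 and 0.52 without NC-1 replicate 2. NOP58 (ENSG00000055044, chromosome 2 from 202265736 to 202303661 on the plus strand, coordinates as in the deposited table, GRCh38) was at 26.9, 26.02 and 29.9 CPM in the libraries labelled ABCF1, against 38.5, 43.1 and 34.1 CPM in NC-1. All libraries labelled ABCF1 lay below all of NC-1, with a log2 fold change of -0.48 (SE 0.12, edgeR adjusted p = 0.25). Its close relative NOP56 was at 89.6 ± 10.5 CPM in the libraries labelled ABCF1, against 84.4 ± 2.805 CPM in NC-1 (SD, n = 3), with overlapping groups. The ratio of FBL to NOP58 in RPKM was 19.3, 24.3 and 26.8 in the ABCF1-labelled libraries, and 11.99, 14.1 and 11.8 in NC-1, and that of NOP56 to NOP58 was 3.41, 3.42 and 4.096 in the ABCF1-labelled libraries, and 2.502, 1.995 and 2.75 in NC-1. These ratios, and the partner ratios below, were picked after the values were seen and are given as descriptions without a test.

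The box H/ACA core holds the pseudouridine synthase dyskerin (DKC1) with NHP2, NOP10 and GAR1. NHP2 was at 92.02, 94.9 and 132 CPM in the libraries labelled ABCF1, against 90.7, 97.8 and 75.6 CPM in NC-1, with ABCF1 replicate 3 highest, overlapping groups and a log2 fold change of 0.27 (SE 0.17) that was 0.093 without that library. NHP2 overlaps RMND5B on the opposite strand, which took 67.8% as many counts and had a log2 fold change of 0.22 (SE 0.09), so part of its reads is uncertain without strand. DKC1 was at 71.9, 70.5 and 72.1 CPM in the libraries labelled ABCF1, against 76.1, 87.9 and 71.6 CPM in NC-1, with a log2 fold change of -0.14 (SE 0.10). NOP10 and GAR1 had log2 fold changes of 0.23 (SE 0.19) and 0.07 (SE 0.20), and the groups overlapped in all 4 genes. Without ABCF1 replicate 3, NOP10 was at 0.11 and GAR1 at -0.16. Without NC-1 replicate 2, NOP10 was at 0.46, GAR1 at 0.19 and DKC1 at -0.048, and without NC-1 replicate 3, NOP10 was at 0.11 and GAR1 at -0.058. The NHP2 to DKC1 ratio in RPKM was 4.21, 4.34 and 5.91 in the ABCF1-labelled libraries, and 3.85, 3.55 and 3.43 in NC-1.

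All 4 transcripts of the group of nucleolar chaperones and helicase had negative log2 fold changes, with a median of -0.23. Nucleolin (NCL), which binds precursor ribosomal RNA (ENSG00000115053, chromosome 2 from 231453531 to 231483641 on the minus strand), was at 373, 376 and 407 CPM in the libraries labelled ABCF1, against 474, 497 and 460.2 CPM in NC-1. The groups stood clear of each other, with a log2 fold change of -0.31 (SE 0.08, edgeR adjusted p = 0.26) that stayed between -0.34 and -0.28 with any 1 library left out. Nucleophosmin (NPM1), a histone chaperone that takes part in ribosome assembly, and the most abundant member at 565 RPKM, was at 788, 839.8 and 988 CPM in the libraries labelled ABCF1, against 885, 1170.1 and 887 CPM in NC-1. NC-1 replicate 2 was its highest library, and without it the log2 fold change was -0.023 in place of -0.17. NPM1 also has 46 pseudogene copies in the table, which together took 0.558% as many counts. The helicase DDX21, which acts at ribosomal DNA and on box C/D RNPs, was at 223, 210.1 and 152 CPM in the libraries labelled ABCF1, against 253, 213 and 251 CPM in NC-1. ABCF1 replicate 3 was the lowest, the groups overlapped and the log2 fold change was -0.29 (SE 0.15), or -0.135 without that library. NOLC1, a chaperone of nucleolar RNPs, was at 233, 225 and 216 CPM in the libraries labelled ABCF1, against 246, 219 and 242 CPM in NC-1, with a log2 fold change of -0.069 (SE 0.09) that ran from -0.12 to -0.035 with 1 library left out. Relative to each gene's mean over the 6 libraries, the median log2 level of these 4 genes was -0.090 to -0.080 in the libraries labelled ABCF1 and 0.087 to 0.12 in NC-1. This median does not show that NPM1, DDX21 and NOLC1 each overlapped between groups. The longest transcripts of all 4 lay below the median GC content of tested genes (49.2%), a range where 27.2% of all genes were positive.

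Among RNA polymerase I genes, the initiation factors RRN3 and UBTF lay on opposite sides. RRN3, known as TIF-IA, which links the polymerase to growth signals, was at 44.4, 41.5 and 37.6 CPM in the libraries labelled ABCF1, against 50.8, 51.8 and 56.9 CPM in NC-1. All 3 libraries labelled ABCF1 were below NC-1, with a log2 fold change of -0.37 (SE 0.10, edgeR adjusted p = 0.26). RRN3 overlaps PDXDC1 on the opposite strand, which had a log2 fold change of -0.14 (SE 0.10), and has 4 copies named as pseudogenes that took 6.9% as many counts, so its level is uncertain. UBTF, which binds the ribosomal DNA promoter, was at 107 ± 3.96 CPM in the libraries labelled ABCF1, against 98.5 ± 3.17 CPM in NC-1 (SD, n = 3), with the libraries labelled ABCF1 all above and a log2 fold change of 0.12 (SE 0.08). The ratio of UBTF to RRN3 in RPKM was 2.12, 2.21 and 2.74 in the ABCF1-labelled libraries, and 1.67, 1.59 and 1.43 in NC-1. POLR1C, a subunit shared with RNA polymerase III, was at 37.8, 40.2 and 44.7 CPM in the libraries labelled ABCF1, against 35.4, 39.1 and 32.02 CPM in NC-1, with a log2 fold change of 0.20 (SE 0.11) and groups that overlapped. XPO5 and YIPF3, on the opposite strand, overlap POLR1C and took 262% and 229% as many counts, with log2 fold changes of 0.061 (SE 0.15) and 0.24 (SE 0.08). POLR1C was at 0.13 without NC-1 replicate 3. The large catalytic subunits POLR1A and POLR1B had log2 fold changes of -0.086 (SE 0.25) and -0.12 (SE 0.19), with ABCF1 replicate 3 and NC-1 replicate 2 the lowest libraries of their groups for both. The sign of both turned positive without ABCF1 replicate 3 (0.093 for POLR1A and 0.035 for POLR1B), and POLR1A was also at 0.0096 without NC-1 replicate 1. The median of the 5 genes was -0.086. It was 0.093 without ABCF1 replicate 3, 0.0096 without NC-1 replicate 1 and 0.080 without NC-1 replicate 3. Without each of the others it ran from -0.28 to -0.14.

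The 13 small subunit factors split, with 6 positive and 7 negative and a median of -0.046. NOC4L, whose yeast relative works with Nop14 on 40S precursors, was at 31.5, 36.3 and 38.8 CPM in the libraries labelled ABCF1, against 27.00, 27.9 and 30.7 CPM in NC-1. The libraries labelled ABCF1 were all higher, with a log2 fold change of 0.32 (SE 0.11, edgeR adjusted p = 0.28). RRP9, a protein of the U3 small nucleolar RNP, and RRP12, a factor in the maturation and export of subunits, also lay above NC-1 in all 3 libraries, with log2 fold changes of 0.26 (SE 0.10) and 0.16 (SE 0.09). On the other side, WDR43, a processome subunit also called UTP5, was at 35.1, 36.7 and 37.8 CPM in the libraries labelled ABCF1, against 46.6, 49.1 and 45.2 CPM in NC-1. Its groups did not overlap, and the log2 fold change was -0.36 (SE 0.09, edgeR adjusted p = 0.25). BMS1, a GTPase of the processome, lay below NC-1 too at -0.25 (SE 0.10), and its 19 copies named as pseudogenes took 4.42% as many counts. UTP20, a very large scaffold protein, was at 33.6, 33.4 and 24.6 CPM in the libraries labelled ABCF1, against 41.2, 28.7 and 47.9 CPM in NC-1. Its lowest libraries were ABCF1 replicate 3 and NC-1 replicate 2, the groups overlapped and the log2 fold change was -0.36 (SE 0.20), or -0.22 without ABCF1 replicate 3 and -0.20 without NC-1 replicate 3. TSR1, the most abundant of the 13 at 31.5 RPKM, was at 151, 144 and 132 CPM in the libraries labelled ABCF1, against 149, 138 and 153 CPM in NC-1, with a log2 fold change of -0.046 (SE 0.09) that was 0.013 without ABCF1 replicate 3. The other processome and 40S factors overlapped between groups, with log2 fold changes of 0.17 for the processome subunit UTP4, 0.09 for BYSL (bystin, a 40S maturation factor), 0.04 for NOP14, -0.11 for the helicase DDX10, -0.23 for the processome subunit HEATR1 and -0.28 for LTV1, which works in late 40S assembly. Leaving out 1 library moved several of these: without NC-1 replicate 2, UTP4 was at 0.053, LTV1 at -0.11 and HEATR1 at -0.40, and HEATR1 was at -0.068 without ABCF1 replicate 3. CHTF8, SNTB2 and DERPC overlap UTP4 with 137%, 48.1% and 19.4% as many counts and were at 0.19 (SE 0.11) for CHTF8, -0.28 (SE 0.12) for SNTB2 and -0.55 (SE 0.11) for DERPC, NOP14-AS1 overlaps NOP14 with 31.4%, and LGALS8 overlaps HEATR1 with 8.50%.

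Of the 16 large subunit factors 5 were positive and 11 negative, with a median of -0.13. CEBPZ, the human relative of yeast Noc1, which works in early 60S assembly (ENSG00000115816, chromosome 2 from 37201612 to 37231596 on the minus strand), was at 43.03, 42.4 and 42.5 CPM in the libraries labelled ABCF1, against 59.5, 62.7 and 60.4 CPM in NC-1. The 3 values of each group lay close together and far from the other group, and the log2 fold change of -0.51 (SE 0.08, edgeR adjusted p = 0.25) stayed between -0.53 and -0.49 with any 1 library left out. CEBPZOS overlaps CEBPZ on the opposite strand with 107.5% as many counts and had a log2 fold change of -0.20 (SE 0.19). NOC3L was at 29.2, 26.7 and 29.3 CPM in the libraries labelled ABCF1, against 35.5, 43.1 and 37.2 CPM in NC-1, again without overlap, at a log2 fold change of -0.44 (SE 0.11, edgeR adjusted p = 0.25). NOC2L, whose yeast relative pairs with Noc3 on 60S precursors, was at 173, 179 and 189 CPM in the libraries labelled ABCF1, against 154, 159.7 and 155 CPM in NC-1, with a log2 fold change of 0.21 (SE 0.08), and SAMD11, at 0.094 (SE 0.12), overlaps it on the opposite strand with 48.8% as many counts. The 8 partner ratios were picked after the values were seen, and no share over other gene pairs was computed. How many of them separate the groups is therefore no result about partner genes. The ratio of NOC4L to NOP14 in RPKM overlapped between groups, at 1.385 ± 0.1645 in the libraries labelled ABCF1 and 1.15 ± 0.117 in NC-1 (SD, n = 3 each). The ratio of NOC2L to NOC3L in RPKM was 7.82 ± 0.489 in the libraries labelled ABCF1 and 5.08 ± 0.413 in NC-1 (SD, n = 3 each).

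PES1, BOP1 and WDR12 form the PeBoW complex, which is needed to process the large subunit RNA. PES1 was at 215, 217 and 275 CPM in the libraries labelled ABCF1, against 184, 212 and 176 CPM in NC-1, with the lowest library labelled ABCF1 just above NC-1 replicate 2 and a log2 fold change of 0.31 (SE 0.13), or 0.19 without ABCF1 replicate 3. BOP1 was at 56.3, 59.4 and 68.9 CPM in the libraries labelled ABCF1, against 50.7, 54.4 and 45.6 CPM in NC-1, likewise without overlap, at 0.29 (SE 0.11). WDR12 was at 22.1, 22.5 and 23.1 CPM in the libraries labelled ABCF1, against 22.7, 26.97 and 26.3 CPM in NC-1, with overlapping groups and a log2 fold change of -0.17 (SE 0.10). The PES1 to WDR12 ratio in RPKM was 33.5, 35.04 and 41.5 in the ABCF1-labelled libraries, and 28.6, 29.1 and 22.7 in NC-1, and the BOP1 to WDR12 ratio was 7.99, 8.54 and 9.304 in the ABCF1-labelled libraries, and 7.09, 6.56 and 5.38 in NC-1. TCN2 overlaps PES1 on the opposite strand with 9.55% as many counts and had a log2 fold change of 0.32 (SE 0.10). How far reads of such neighbours enter the members' counts was not tested.

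The methyltransferase NOP2 lay above NC-1 in all libraries labelled ABCF1, at 0.14 (SE 0.08), and the helicase DDX18 and the GTPase GNL2 lay below, at -0.22 (SE 0.08) and -0.18 (SE 0.09). The GTPase GNL3 (nucleostemin), at -0.28 (SE 0.12), and the giant ATPase MDN1, at -0.34 (SE 0.31), overlapped between groups, and MDN1 was at -0.090 without ABCF1 replicate 3, -0.58 without NC-1 replicate 2 and -0.10 without NC-1 replicate 3. PBRM1 and GLT8D1 overlap GNL3 with 33.7% and 58.8% as many counts and had log2 fold changes of -0.47 (SE 0.18) and -0.085 (SE 0.13). The 60S assembly factors NOP16 (0.03), RRP1B (-0.072) and NIP7 (-0.12) overlapped between groups as well, and so did SBDS (-0.13) and EFL1 (-0.023), which together release eIF6 from the new 60S subunit. HIGD2A and COG8 lie across NOP16 and NIP7 with 173% and 139.8% as many counts, at 0.30 (SE 0.14) and 0.22 (SE 0.11). TYW1 overlaps SBDS with 22.4% as many counts. The SBDS copy SBDSP1 took 23.2% as many counts as SBDS, and reads may be shared between the copies.

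**Figure D2:**
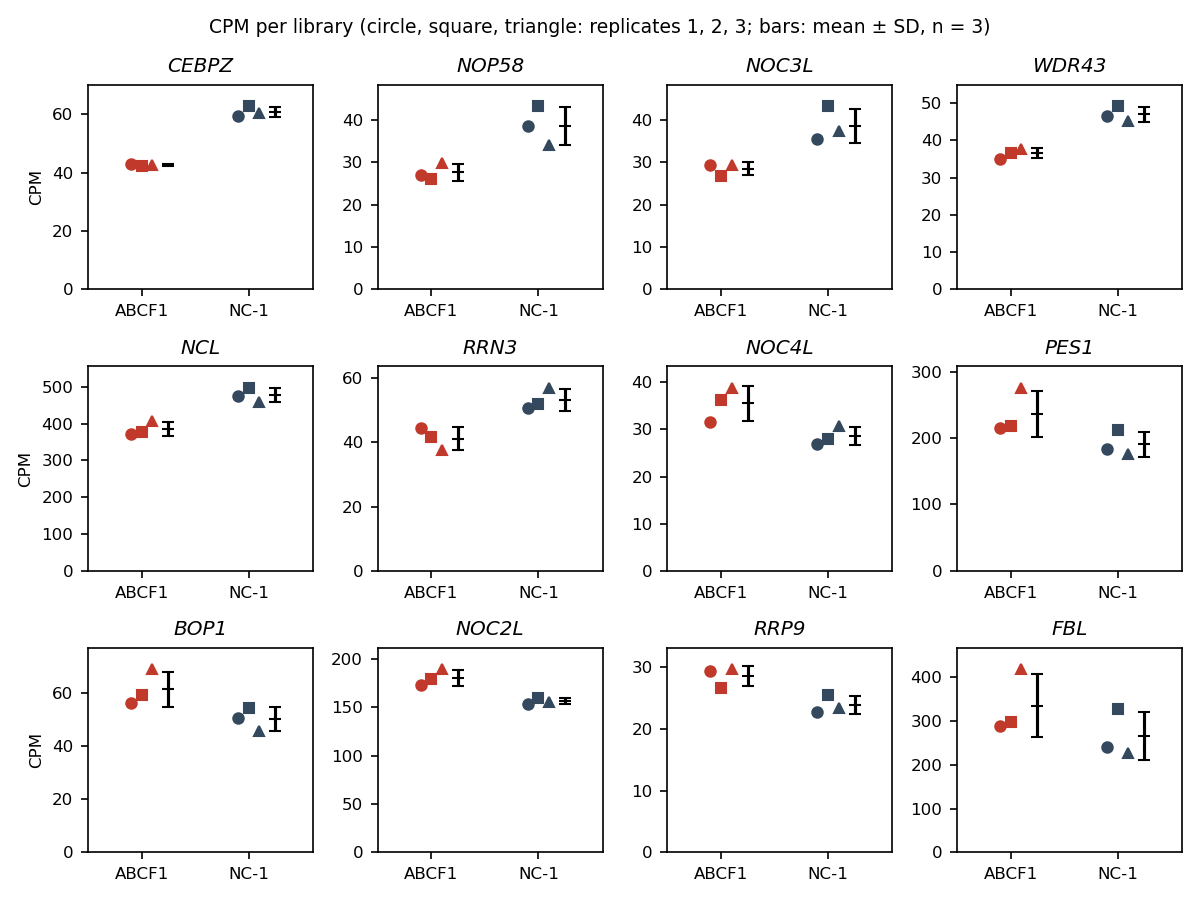
CPM in each library (y axis, from 0) for 12 members, red for the libraries labelled ABCF1 and dark blue for NC-1, with circles, squares and triangles for replicates 1, 2 and 3 and bars for mean ± SD (n = 3). CEBPZ, NOP58, NOC3L, WDR43, NCL and RRN3 sit lower in every library labelled ABCF1, while NOC4L, PES1, BOP1, NOC2L and RRP9 sit higher and FBL overlaps.

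Small nucleolar RNA genes lie inside several members, 5 in NOP56, 4 each in NOP58 and GNL3, and 3 each in NCL and WDR43. The genes that overlap NOP56 took 31 counts over the 6 libraries against 35623 for NOP56, and those that overlap NCL took 16 against 176177. In all, 13 of the 45 members overlap a gene with at least 5% as many counts.

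Members whose groups did not overlap also differed in base composition. The 8 members above NC-1 had a median GC content of 58.4% in their longest GENCODE 29 transcript and the 9 below one of 41.3%, and the 2 sets shared no value, since they ran from 55.0% to 65.2% and from 37.7% to 47.2%. Across the 45 members, which share the same libraries, Spearman's rho of the log2 fold change was 0.82 against GC content and -0.38 against transcript length. Over the 134 further ribosome biogenesis genes these were 0.74 and -0.22. Over 16357 tested genes with a value, which include genes under 10 CPM, they were 0.49 and -0.28. Of the 17 members above the median GC of all tested genes (49.2%), 14 were positive, with a median of 0.14, where 72.9% of all such genes were positive, also with a median of 0.14. Of the 28 members at or below it, 4 were positive, with a median of -0.20, where 27.2% of all such genes were positive, with a median of -0.15. Partners on opposite sides differed in GC content too, NOC2L with 57.7% and NOC3L with 37.7%, FBL with 54.3% and NOP58 with 41.3%, BOP1 with 65.2%, PES1 with 58.2% and WDR12 with 40.2%. Among genes of 10 CPM or more, GC-rich transcripts lay above their gene's mean in each library labelled ABCF1, with a Spearman rho over genes between 0.39 and 0.58, and below it in each NC-1 library, with rho between -0.49 and -0.32. Against transcript length, rho was 0.29, -0.014 and -0.71 in ABCF1 replicates 1, 2 and 3, and 0.63, -0.36 and 0.68 in those of NC-1. The members with the longest transcripts, MDN1, POLR1A, UTP20 and HEATR1, were lowest within their groups in ABCF1 replicate 3 and NC-1 replicate 2. The next longest, WDR12, was highest there. The part of transcript length in these values was not tested.

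**Figure D3:**
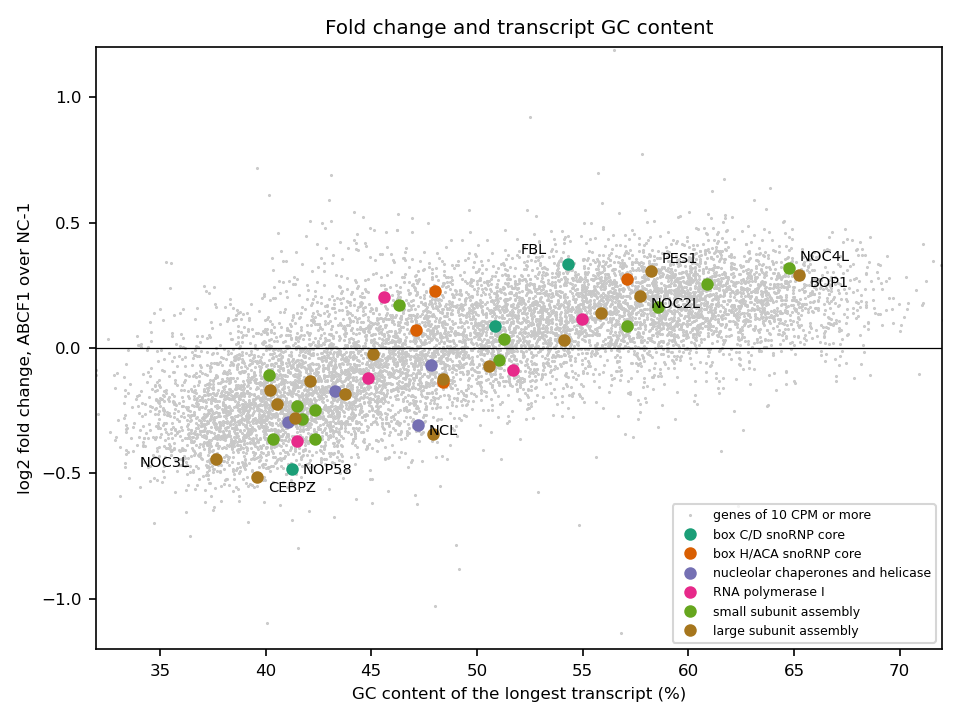
Log2 fold change (y axis, ABCF1 over NC-1) against the GC content of the longest transcript (x axis, %) for the 45 members, coloured by role, over genes of 10 CPM or more in grey. The members follow the grey cloud from CEBPZ and NOC3L at low GC to NOC4L and BOP1 at high GC.

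A further fit, chosen once the data were known, took the side of the first principal component (the library set) as a covariate, and in it edgeR called 9 members higher and 16 lower, 20% and 35.6% of the list. The backgrounds were 12.9% and 12.5% of all tested genes, and 21.6% and 19.7% of those of 10 CPM or more. The covariate was read from the same counts that were tested. The 9 higher members were FBL, NHP2, NOP10, POLR1C, NOC4L, RRP9, NOC2L, BOP1 and PES1. Of the 4 nucleolar chaperones and helicase, 3 (NCL, NPM1 and DDX21) were among the 16 lower. In this fit CEBPZ was at -0.51 (edgeR adjusted p = 9.1e-04), NOP58 at -0.48 (edgeR adjusted p = 0.0017), NCL at -0.31 (edgeR adjusted p = 0.0014), FBL at 0.34 (edgeR adjusted p = 0.0014) and PES1 at 0.30 (edgeR adjusted p = 0.0022). A fit without ABCF1 replicate 3 and NC-1 replicate 2 kept 4 libraries, 2 in each group. They were chosen by the same component of the tested counts, which can narrow the spread within groups. In these 4 libraries edgeR called 4 members higher and 10 lower, 8.89% and 22.2% of the members. Of all tested genes 5.68% and 5.1% were called, and of those of 10 CPM or more 9.76% and 8.52%. All 14 were also called in the same direction with the library set, a fit that contains these same 4 libraries and so is not separate evidence.

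When a per-gene offset for transcript length and GC content was added to the library set, edgeR called 4 members higher (FBL, POLR1C, UTP4 and PES1) and 3 lower (NOP58, NCL and CEBPZ). That is 8.89% and 6.67% of the list, beside 4.88% and 1.57% of all tested genes and 8.22% and 2.44% of those of 10 CPM or more. The offset was read from the same counts that were tested, library by library and with no group term. It therefore also takes out group differences that follow GC content or length, and smaller fold changes are built into it. Its adjusted p-values treat it as known. Of the 25 members called with the library set alone, 6 were still called in the same direction, 24 had a smaller fold change and 2 (HEATR1 and DDX18) changed sign. The median one of the 25 kept 49.9% of its log2 fold change. The relation to GC content was smaller with the offset but still present among the members. Spearman's rho was 0.44 over 45 members, 0.11 over the 134 further ribosome biogenesis genes and 0.041 over all tested genes. Members at or below the median GC then had a median log2 fold change of -0.095, where all such genes had one of -0.00020. The offset was fitted to all tested genes, so their small values follow from the fit and are no independent background. NOP58 was at -0.37 (edgeR adjusted p = 0.0087), CEBPZ at -0.30 (edgeR adjusted p = 0.0094) and NCL at -0.26 (edgeR adjusted p = 0.0036). POLR1C was at 0.25 (edgeR adjusted p = 0.027), UTP4 at 0.25 (edgeR adjusted p = 0.037), FBL at 0.18 (edgeR adjusted p = 0.025) and PES1 at 0.17 (edgeR adjusted p = 0.03). NOC3L was at -0.21 (edgeR adjusted p = 0.11), WDR43 at -0.16 (edgeR adjusted p = 0.095), RRN3 at -0.19 (edgeR adjusted p = 0.13), BOP1 at 0.12 (edgeR adjusted p = 0.26), NOC4L at 0.14 (edgeR adjusted p = 0.28) and NOC2L at 0.08 (edgeR adjusted p = 0.27), and their calls were lost.

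**Figure D4:**
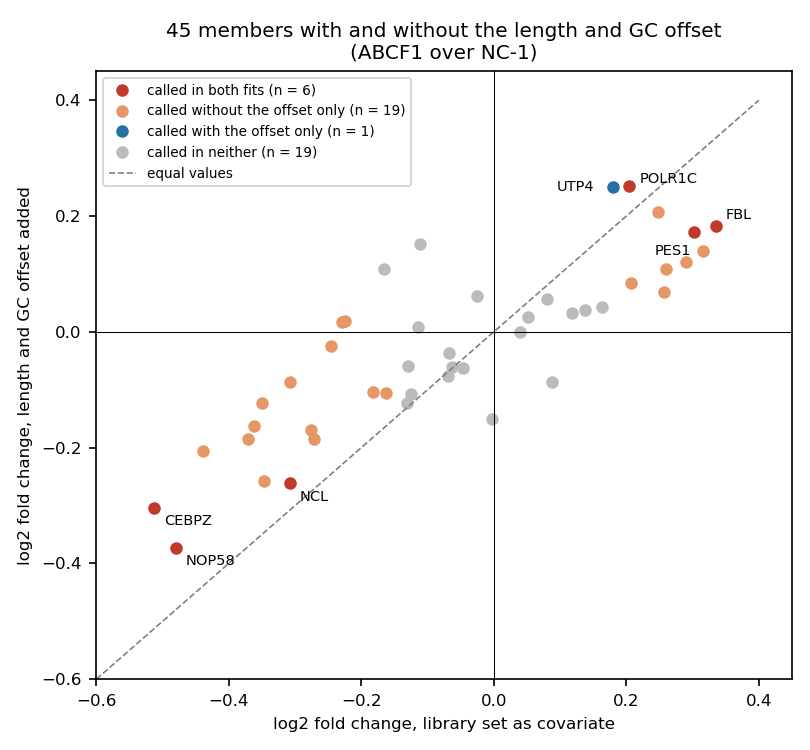
Log2 fold change of the 45 members (ABCF1 over NC-1) with the library set as covariate (x axis) and with the offset for length and GC included (y axis), coloured by the fit in which edgeR called them, with equal values on the dashed line. NOP58, CEBPZ, NCL, FBL, PES1 and POLR1C were called in both fits, 19 members only without the offset and UTP4 only with it.

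The list of further ribosome biogenesis genes held 134 genes, all tested, and edgeR called none of them (0 higher, 0 lower). An unadjusted p under 0.05 was found in edgeR for 8 higher and 20 lower genes, 5.97% and 14.9% of this list. Beside these stand 6.27% and 8.54% of all tested genes, and 9.28% and 11.8% of those of 10 CPM or more. The median log2 fold change was 0.013, with 70 of 134 positive. With library size alone or limma on RPKM, 48 of 134 were positive (35.8%), beside 37.4% to 38.6% of all tested genes. The median was -0.087 with library size alone, where all tested genes had one of -0.099. With the library set, 26 were called higher and 26 lower, 19.4% each way, beside 21.6% and 19.7% of genes of 10 CPM or more. With the offset added 11 were higher and 2 lower, 8.21% and 1.49%, beside 8.22% and 2.44% of genes of that level. Among small subunit factors KRR1 had a log2 fold change of -0.40 (SE 0.09) and the helicase DDX52 of -0.35 (SE 0.08), and BUD23, the most abundant, of 0.13 (SE 0.17). Among large subunit factors NLE1 had one of 0.34 (SE 0.09), MAK16 of -0.42 (SE 0.12) and NOP53 of 0.36 (SE 0.18). The RNA polymerase I subunit listed as TWISTNB had a log2 fold change of -0.37 (SE 0.10), the initiation factor subunits TAF1A and TAF1D of -0.32 (SE 0.14) and -0.17 (SE 0.17). Of the snoRNP assembly factors, RPAP3 had one of -0.32 (SE 0.11) and RUVBL2 of 0.28 (SE 0.11). The exosome helicase MTREX was at 50.01 ± 2.83 CPM in the libraries labelled ABCF1, against 67.7 ± 3.87 CPM in NC-1, with a log2 fold change of -0.44 (SE 0.09), the exosome nuclease DIS3 at -0.41 (SE 0.10) and EXOSC2 at -0.06 (SE 0.08). Of these, MTREX at -0.21 (edgeR adjusted p = 0.034), NLE1 at 0.26 (edgeR adjusted p = 0.029) and NOP53 at 0.22 (edgeR adjusted p = 0.02) were called with the offset.

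MYC was at 316, 312 and 302 CPM in the libraries labelled ABCF1, against 304, 266 and 297 CPM in NC-1, with overlapping groups and a log2 fold change of 0.10 (SE 0.09, edgeR adjusted p = 0.62). Its partner network held MLX at 0.20 (SE 0.09) and MGA at -0.31 (SE 0.24), and edgeR called none of its 6 genes. Of these 6, 5 were positive here and 2 with library size alone or limma on RPKM.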

How the data were processed

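Bulk RNA was sequenced in 6 libraries, 3 labelled ABCF1 and 3 labelled NC-1. The authors deposited raw counts per gene and RPKM values for the same genes, per the labels and sheet names. The submitters' processing notes name CASAVA 1.8, Trimmomatic, FastQC, HISAT2, StringTie and edgeR and the build GRCh38, without roles or settings, and strand use is not given in the sources used here.

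The main test on counts was that of edgeR 4.0.16, run in R 4.3.3 (TMM factors, filterByExpr, quasi-likelihood F test, group as the only term, Benjamini-Hochberg adjustment over 16545 genes), and SEs were derived from the fold change and its F statistic. RPKM served to compare genes. Alternatives used DESeq2 1.42.0, limma 3.58.1 on log2(RPKM + 1) and log2(RPKM + 0.1), other factors, other filters, the replicate number as a block, and each library left out. Added after seeing the data were the side of the first principal component as a covariate, that covariate with a loess offset (span 0.3) for the length and GC content of the longest GENCODE 29 transcript, available for 98.9% of tested genes, and the 4 libraries on its negative side alone. The edgeR test was checked on simulated data whose fold changes were larger than those of the members, so that check says nothing of changes as small as theirs. Exact permutation of 3 against 3 libraries cannot go below 0.1, so single values carry no such test.

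Values in every library are given, in each role group, for the members with the highest and lowest fold change, the highest mean RPKM and the 2 smallest p-values. Some others are shown as partners of these and were chosen after their values were seen, as were the partner ratios. From each further list the 2 smallest p-values and the most abundant gene are named. The members and lists were chosen with earlier results of these data known. Depth was 62323034 to 77394510 counts per library, and the spread between libraries limits the precision.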

Additional observations from a re-analysis of the deposited data

How the results depend on the processing

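The 45 members and the further pathway genes had no edgeR call under TMM, DESeq2 size factors, upper-quartile factors, library size alone, either filter, limma on RPKM, the replicate block or any 1 library left out. The labels do not say whether the replicate numbers pair the libraries. After removal of group means, same-numbered libraries correlated at 0.11, -0.11 and -0.15, and those of unlike number at -0.17 to 0.26. The replicate block called 0 members. The Wald test called 243 genes higher and 383 lower (1.47% and 2.31%). Among them were 6 members lower (13.3%), and 1 further pathway gene higher and 6 lower (0.746% and 4.48%). With the library set these were 2129 and 2064 genes (12.9% and 12.5%), 9 and 16 members (20% and 35.6%), and 26 and 26 further genes (19.4% each). With the length and GC offset they were 798 and 256 genes (4.88% and 1.57%), 4 and 3 members (8.89% and 6.67%), and 11 and 2 further genes (8.21% and 1.49%). With 4 libraries they were 950 and 853 genes (5.68% and 5.1%), 4 and 10 members (8.89% and 22.2%), and 5 and 7 further genes (3.73% and 5.22%). The cause of these differences was not tested. ABCF1 passed the threshold in these same fits, with log2 fold changes of -0.56 (Wald), -0.57 (library set), -0.64 (offset) and -0.59 (4 libraries).

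The members' median log2 fold change was -0.18 with library size alone, -0.17 and -0.18 with limma on log2(RPKM + 1) and log2(RPKM + 0.1), -0.025 with the offset and -0.11 to -0.046 with 1 library left out. The median of nucleolar chaperones and helicase was -0.33, -0.35, -0.35 and -0.096 in the first 4 of these, -0.17 with 4 libraries and -0.25 to -0.20 with 1 library left out. The median of small subunit factors was -0.14, -0.17, -0.17, 9.6e-05 and, with 1 library left out, -0.087 to 0.013. That of large subunit factors was -0.23 with library size alone, -0.19 with log2(RPKM + 0.1) and -0.068 with the offset.

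Of the 45 members, 31 kept their sign in all 18 alternatives. The sign turned with library size alone for NOP56 (-0.017), GAR1 (-0.032), NOP14 (-0.061), BYSL (-0.012) and NOP16 (-0.073). It turned with log2(RPKM + 1) and log2(RPKM + 0.1) for GAR1 (-0.027 and -0.028), NOP14 (-0.052 and -0.055) and NOP16 (-0.11 and -0.11). NOP16 also turned with the replicate block (-0.0067) and the library set (-0.0033). With the offset the sign turned for POLR1B (0.0080), HEATR1 (0.016), DDX10 (0.15), BYSL (-0.087), NOP16 (-0.15), WDR12 (0.11), DDX18 (0.018) and EFL1 (0.062). With 4 libraries it turned for NOP56 (-0.040), GAR1 (-0.041), NOP16 (-0.20) and EFL1 (0.021). With 1 library left out, values ran from -0.0069 to 0.14 for NOP56, -0.16 to 0.19 for GAR1, -0.31 to 0.093 for POLR1A, -0.28 to 0.035 for POLR1B, -0.097 to 0.013 for TSR1, -0.24 to 0.16 for NOP16, -0.19 to 0.033 for RRP1B and -0.069 to 0.044 for EFL1.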
